A study of Arabidopsis thaliana with 18 samples.

Results

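The response to salicylic acid (SA) was measured on 6 of the series' 18 arrays: 3 arrays of samples treated with 0.3 mM SA in 0.02% silwet and 3 arrays of samples treated with 0.02% silwet alone. Silwet is a surfactant that spreads a solution over plant surfaces, and every array of the series shares it, so the contrast is SA plus surfactant against surfactant. Each ATH1 array measured 1 sample of Van-0, an Arabidopsis thaliana accession, and no mutant or second accession was among them. Total RNA was the starting material and biotin the label. By their titles the 18 arrays fall into runs of 3 consecutive numbers, each run numbered Rep 1 to Rep 3. Numbers 109 to 117 are silwet and 118 to 126 are SA. Silwet and SA runs were joined in order of number into 3 title sets, each with 3 SA and 3 silwet arrays. The titles do not state this joining. The 6 arrays were picked out by their titles, with earlier results of these data known. They are title set 1, with the numbers 118, 119 and 120 for SA and 109, 110 and 111 for silwet. No source used here says what a title set is, so it is not called a time after treatment. The labels also give no age or tissue, and do not say whether replicates are different plants or pots. The p-values therefore cover only how far these samples scatter, which may be technical scatter.

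SA is a plant hormone of defence against microbes that feed on living cells. It binds receptors of the NPR family, which act with TGA transcription factors, and WRKY factors, glutaredoxins and pathogenesis-related genes are among the transcripts that follow. Plants also make SA inactive by joining sugar to it or by methylating it, and SA and jasmonate signalling often oppose each other.

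The values are MAS5 signals, 1 linear intensity for each probe set and array, scaled so that the arrays have equal trimmed means. The scaling hides any change shared by most transcripts, and the number of arrays limits the precision. The 6 arrays were not all alike. Silwet Rep 1 correlated with the other 5 arrays at 0.869 to 0.895 across probe sets, while those 5 correlated among themselves at 0.938 to 0.968. It was the lowest or the highest of the 6 arrays on 63.9% of the tested probe sets, against 22.9% to 33.9% for each other array, and its median signal was 24.5 against 29.4 to 36.6. The 5' to 3' signal ratio of the GAPDH control averaged 1.197 ± 0.07 on the SA arrays and 0.99 ± 0.06 on the silwet arrays (SD, n = 3 each; two-sided exact permutation p = 0.1, the smallest possible with 3 against 3, adjusted over the 3 controls 0.3). The ubiquitin and actin ratios had an exact p of 0.6 each. By these ratios silwet Rep 1 did not stand apart, with 0.989 for GAPDH, 0.811 for ubiquitin and 0.184 for actin. Silwet Rep 2 had 0.940, 0.829 and 0.151, and silwet Rep 3 had 1.05, 0.873 and 0.226. RCA, the leaf protein rubisco activase, had signals of 2312 to 3160 with SA and 2648 to 3198 with silwet, and EXPA18, an expansin of root hairs, had 11.9 to 17.9 with SA and 8.60 to 15.9 with silwet.

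With SA, 74 probe sets rose and 58 fell in title set 1. The rises included UGT76B1, an enzyme that glucosylates SA, AT3G13610, an enzyme of coumarin synthesis, and AT3G28510, which is known here only by its locus identifier. The falls included MSRB5, a methionine sulfoxide reductase, and SCPL34, a carboxypeptidase-like protein. The test was limma on log2(signal + 2) with a Benjamini-Hochberg adjusted p under 0.05, fitted on all 18 arrays as 6 groups. On that scale the change of a dim probe set is understated.

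The 132 calls were 0.829% of 15922 probe sets tested, the 74 rises 0.465% and the 58 falls 0.364%. Of these, 65 rises and 49 falls were at least 2-fold, and 13 rises and 5 falls at least 4-fold. The median log2 difference was 1.43 for the rises and -1.25 for the falls, beside -0.01 over all tested probe sets. In all 132 the 3 SA signals lay wholly above or below the 3 silwet signals. Over all tested probe sets the 2 treatments did not overlap for 18.6%: SA was higher throughout for 8.54% and lower throughout for 10.1%. At an unadjusted p under 0.05 there were 1995 probe sets, 940 higher and 1055 lower. If the p-values were exact, 796 would be called by chance. The same count was 1710 in title set 2 and 308 in title set 3, so 796 is only nominal.

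**Figure D1:**
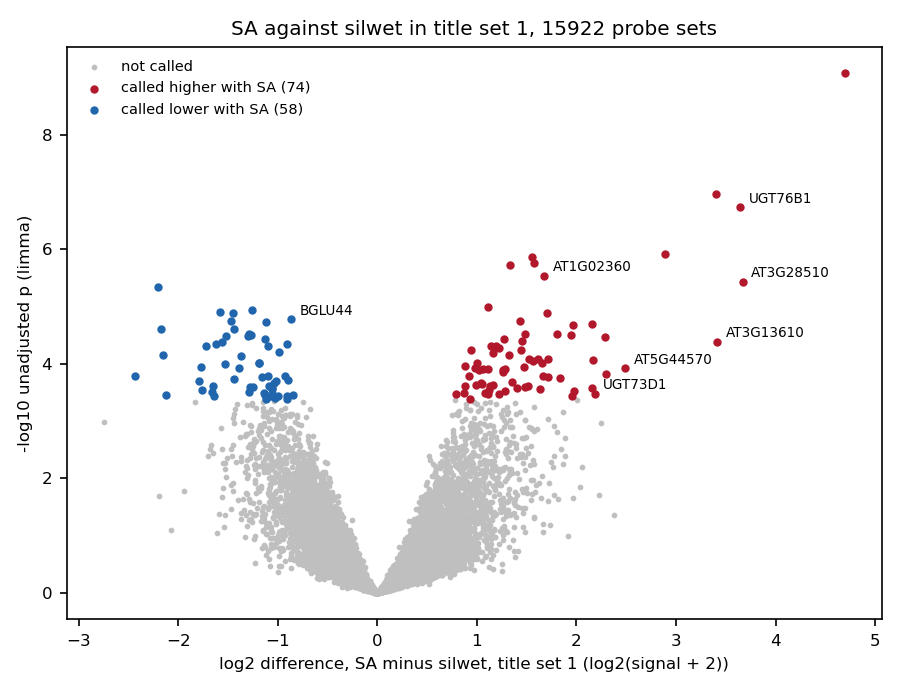
Each point is 1 of 15922 probe sets, with the log2 difference of SA minus silwet in title set 1 on the horizontal axis and -log10 of the unadjusted limma p on the vertical axis. Red points mark the 74 called higher with SA, blue the 58 called lower, and grey those not called; UGT76B1 and AT3G28510 lie far to the right, while falls end at -2.44.

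The number of calls rested on the fit and on single arrays. Same-numbered SA and silwet arrays of title set 1 deviated together, so the Rep number was taken as a possible pairing. The titles do not state one. With the Rep numbers of each title set as blocks in the fit on 18 arrays, 412 probe sets were called, 206 in each direction, and all 132 were among them. Of the 52 named genes, 5 that were not called without blocks passed with them. The SEs and adjusted p-values given for single genes are from the fit without blocks unless stated. With each array centred on its median there were 69 calls, 53 rises and 16 falls. With only the 6 arrays of title set 1 there were 6 calls, all rises, and 10 with the block, all rises. With those arrays less silwet Rep 1, an alternative chosen after seeing the data, there were 185 calls, 140 rises and 45 falls, of which 70 were among the 132. Leaving out SA Rep 1, 2 or 3 left 13, 13 and 28 calls, and leaving out silwet Rep 1, 2 or 3 left 64, 14 and 164. Without silwet Rep 1 of title sets 2 and 3, whose GAPDH 5' to 3' ratios were 0.465 and 0.225, there were 324 calls in title set 1. Since the treatments did not overlap in any call, 1 of the 3 silwet arrays had to be lowest in each rise and highest in each fall. Silwet Rep 1, the array that stood apart, was the lowest of the 6 in 35 of the 74 rises and the highest in 29 of the 58 falls. Over all 15922 tested probe sets it was the lowest in 5909 and the highest in 4268. Without it 30 of the rises and 16 of the falls were still called. All 132 kept their sign without each of the 6 arrays in turn. Calls that held every time numbered 8: UGT76B1, AT1G02360, AT3G09010, AT1G34750 and 4 probe sets unnamed here. AT3G09010 and AT1G34750 were chosen after their values were seen, as were AT3G29240 and AT3G60450 further on.

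UGT76B1, whose product glucosylates SA and related defence signals, had the smallest adjusted p of the named genes. Its signals were 1561, 1356 and 1398 with SA, against 188, 62.7 and 121 with silwet. All 3 SA arrays stood far above the highest silwet array and close to one another. The log2 difference was 3.65 ± 0.43 (SE; limma adjusted p = 0.000979), which is 12.5-fold, and it was 3.23 to 4.01 without each of the 6 arrays, called every time. With only the 6 arrays of the set the adjusted p by limma was 0.0234.

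The gene lists were written with earlier results of these data known, so their counts and medians only describe. UGT76B1 is a member of the SA response markers, of the SA list after them and of the UDP-glycosyltransferases. Most of the listed SA genes could not be examined, since few had a probe set naming 1 gene. Of 20 SA response markers 3 were tested, and UGT76B1 was the one called, with a median log2 difference of 1.27 beside -0.02 over the 8677 genes tested, of which 40 rose and 33 fell. WRKY53, a transcription factor active in senescence and in defence, had signals of 590, 652 and 412 with SA, against 222, 293 and 171 with silwet. The arrays did not overlap, but the log2 difference of 1.27 ± 0.32 missed the threshold (limma adjusted p = 0.0727). With the Rep blocks the limma adjusted p of WRKY53 was 0.0263 on 18 arrays and 0.128 on the 6 arrays of the set. GRX480, a glutaredoxin that binds TGA factors, had signals of 725, 827 and 714 with SA, against 675, 346 and 264 with silwet. Its SA arrays were only narrowly above silwet Rep 1, the highest silwet array, and the log2 difference was 0.93 ± 0.40 (limma adjusted p = 0.34).

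Of 28 genes that make, perceive or convert SA, 4 were tested, and UGT76B1 and AT5G52810 rose, with a list median of 1.11. AT5G52810, which encodes a reductase on the route to pipecolic acid, a defence signal that works with SA, had signals of 504, 473 and 519 with SA, against 283, 131 and 164 with silwet. The SA values lay within a narrow range above all silwet values, and the log2 difference was 1.44 ± 0.27 (limma adjusted p = 0.0198). It was no longer called in 4 of the 6 fits that left out 1 array, with an adjusted p of up to 0.0922 without SA Rep 1. SAG101 and BSMT1, chosen after their values were seen, had differences of opposite sign, and neither passed. SAG101, a partner of the immune regulator EDS1, had signals of 65.2, 65.7 and 69.3 with SA, against 25.5, 47.7 and 45.0 with silwet (log2 difference 0.78 ± 0.32, limma adjusted p = 0.304). BSMT1, which methylates SA, had signals of 55.9, 35.8 and 55.6 with SA, against 123, 123 and 73.9 with silwet (log2 difference -1.08 ± 0.64, limma adjusted p = 0.541).

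Both tested jasmonate and ethylene defence genes, of 21 listed, had lower signals with SA, and neither passed. PDF1.2, a plant defensin, had signals of 7.42, 4.22 and 7.31 with SA, against 55.2, 13.97 and 14.2 with silwet. Its log2 difference was -1.59 ± 0.72 (limma adjusted p = 0.369), and it was -0.98 without silwet Rep 1, the highest array, with an adjusted p of 0.756. THI2.1, a thionin chosen after its values were seen, had signals of 22.5, 18.6 and 22.5 with SA, against 61.4, 60.7 and 39.0 with silwet (log2 difference -1.24 ± 0.74, limma adjusted p = 0.55).

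**Figure D2:**
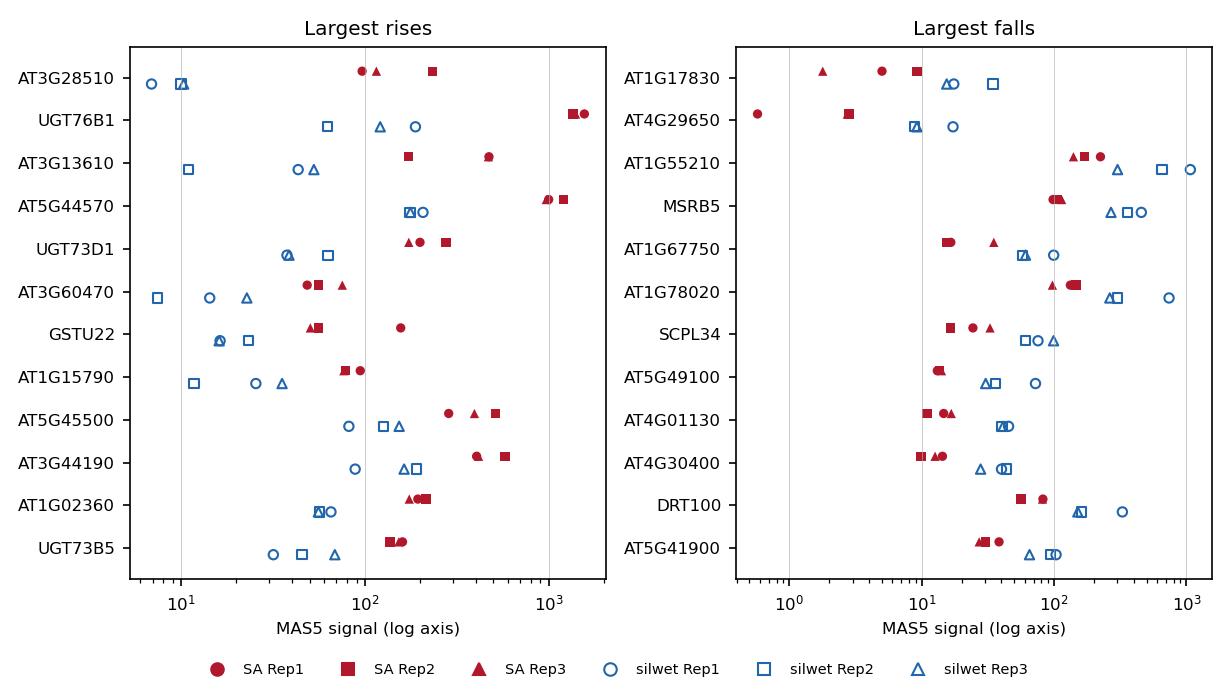
MAS5 signals (log axis) of the 12 named genes with the largest rises, left, and the 12 with the largest falls, right, on the 6 arrays of title set 1. Filled red symbols are SA arrays, open blue symbols silwet arrays, with circles, squares and triangles for Rep 1, 2 and 3. In every row the SA and silwet symbols do not overlap, which was a condition for being shown.

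UDP-glycosyltransferases, which join sugars to hormones, defence compounds and toxins, gave 3 of the 12 largest named rises. Of 31 tested members 3 rose and 0 fell, and the family's median log2 difference was 0.07. Over all 8677 genes tested, the background for this list and those below, 40 rose and 33 fell. Beside UGT76B1, UGT73D1 had signals of 199, 276 and 173 with SA, against 37.7, 62.9 and 38.6 with silwet. UGT73B5, a member linked to redox status in pathogen attack, had signals of 160, 137 and 153 with SA, against 31.7, 45.4 and 68.5 with silwet. Every SA array exceeded every silwet array in both genes. Their log2 differences were 2.18 ± 0.49 for UGT73D1 (limma adjusted p = 0.0452) and 1.65 ± 0.32 for UGT73B5 (limma adjusted p = 0.0259). Neither call was firm: of the 6 fits without 1 array, UGT73D1 was called in 0 (limma adjusted p up to 0.176 without SA Rep 2). UGT73B5 was called in 1 of the 6 (up to 0.12 without SA Rep 1). In those fits the log2 difference was 1.99 to 2.42 for UGT73D1 and 1.39 to 1.92 for UGT73B5.

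Among tau and phi glutathione S-transferases, which couple glutathione to reactive compounds, 1 of 9 tested members rose and 0 fell (median 0.12). This was GSTU22, with signals of 157, 56.0 and 50.4 with SA, against 16.3, 23.2 and 16.1 with silwet. SA Rep 1 was far above the other SA arrays, and the log2 difference was 1.95 ± 0.44 (limma adjusted p = 0.0452), or 1.44 without that array (adjusted p = 0.223). In the detoxification list UGT73B5 was the only call among 5 tested members (median 0.57).

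AT3G13610 encodes F6'H1, the hydroxylase that opens the route to the coumarin scopoletin, an antimicrobial phenolic. Its signals were 473, 172 and 469 with SA, against 43.3, 11.0 and 52.7 with silwet. Rep 2 was the lowest array in both treatments, and the groups were well apart. The log2 difference was 3.41 ± 0.62 (limma adjusted p = 0.0184), and its adjusted p was 0.0981 without SA Rep 1. With the 6 arrays alone the Rep block brought the adjusted p to 0.0169, against 0.179 with no block.

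ATERDJ3B, a DnaJ co-chaperone of the endoplasmic reticulum, rose as the 1 call among 4 tested genes of folding there (median 0.56). Its signals were 1032, 1373 and 1044 with SA, against 472, 714 and 634 with silwet, a log2 difference of 0.93 ± 0.21 (limma adjusted p = 0.0495), and it was called in 0 of the 6 fits without 1 array (up to 0.202 without SA Rep 2). Among 6 tested genes of early stress and elicitor response 0 were called by limma (median 0.62). PUB24, a ubiquitin ligase that dampens immune signalling, came nearest with signals of 277, 302 and 362 with SA, against 113, 172 and 200 with silwet (log2 difference 0.98 ± 0.26, limma adjusted p = 0.0863). With the Rep blocks its limma adjusted p was 0.0297 on 18 arrays and 0.158 on the 6 arrays of the set.

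**Figure D3:**
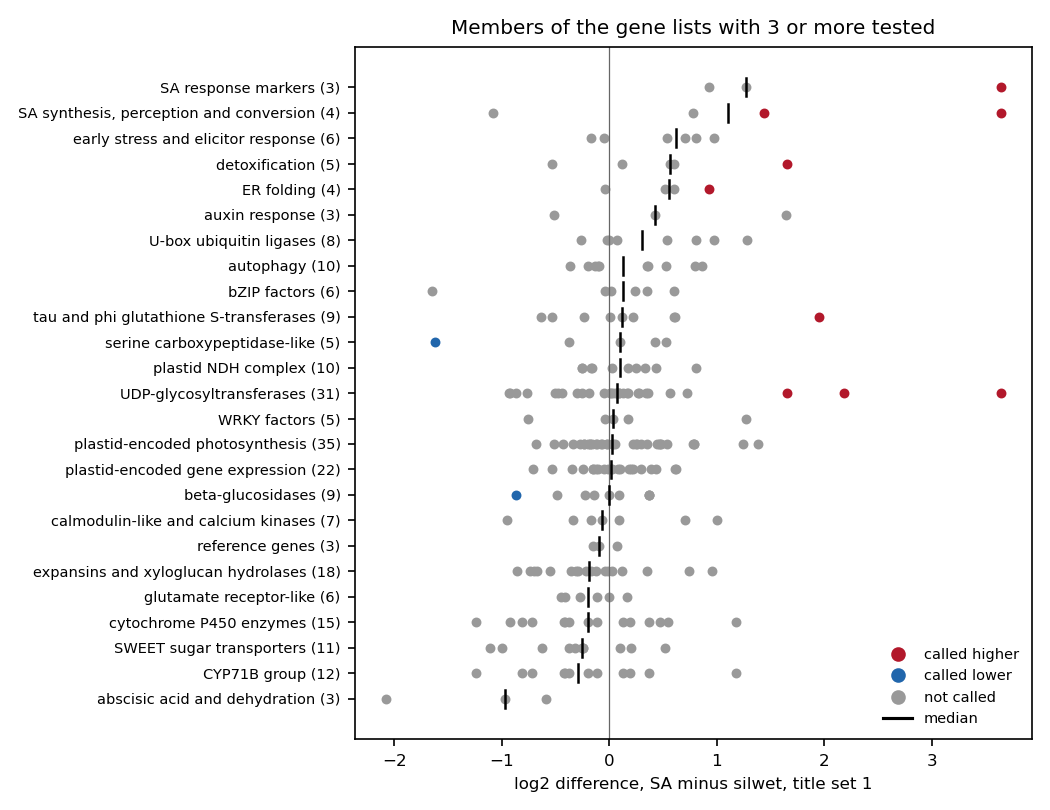
Log2 difference of SA minus silwet in title set 1 for each tested member of the gene lists with 3 or more tested members, the number tested in brackets. Red points were called higher, blue called lower and grey not called, and black bars are list medians, from 1.27 for SA response markers to -0.97 for abscisic acid and dehydration genes. The lists were written with earlier results of these data known.

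Several of the largest rises belong to genes known here only by locus identifier. AT3G28510 had signals of 96.5, 232 and 115 with SA, against 6.90, 9.97 and 10.3 with silwet. It was far below the median signal on every silwet array, and its log2 difference of 3.67 ± 0.54 (limma adjusted p = 0.0065) was the largest of any named gene. AT5G44570 had signals of 998, 1206 and 969 with SA, against 207, 176 and 177 with silwet. Both groups were tight, with a log2 difference of 2.49 ± 0.50 (limma adjusted p = 0.028). AT1G02360 had signals of 194, 215 and 174 with SA, against 65.3, 56.6 and 55.8 with silwet (log2 difference 1.68 ± 0.24, limma adjusted p = 0.00574). These 3 differ in how often the call held: AT1G02360 was called without each of the 6 arrays, AT3G28510 in 5 of the 6 fits (adjusted p = 0.0561 without SA Rep 2), and AT5G44570 in 0 of the 6 (up to 0.117 without SA Rep 2). The log2 difference of AT5G44570 stayed between 2.39 and 2.57 in those fits. The spread behind each p-value is estimated from all 3 title sets, not from title set 1 alone.

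AT5G44570 and AT3G28510 were nevertheless called with the 6 arrays of the set alone, as were UGT76B1, AT3G29240 and 2 unnamed probe sets. AT3G29240 had signals of 2487, 3140 and 2658 with SA, against 1037, 955 and 982 with silwet, a log2 difference of 1.47 ± 0.29 (limma adjusted p = 0.028). The other 4 of the 12 largest named rises were AT3G60470, AT1G15790, AT5G45500 and AT3G44190, with log2 differences of 1.96, 1.81, 1.71 and 1.70. AT3G60470 and AT3G60450, which had a log2 difference of 1.05, lie with 1 gene between them on chromosome 3. Of the 12 largest named rises 10 lost the call without at least 1 array, at an adjusted p of 0.0561 to 0.223, while the log2 differences of the 12 stayed between 1.37 and 4.01.

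Probe sets that name no gene or several genes here made up 34 of the 74 rises and 25 of the 58 falls. They include the largest rise of the 74, with signals of 1374, 1279 and 959 with SA, against 85.0, 22.2 and 44.2 with silwet. Its log2 difference was 4.70 ± 0.38 (limma adjusted p = 1.34e-05), and it was called without each of the 6 arrays.

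Among the falls, MSRB5, which repairs oxidised methionine, had signals of 98.2, 106 and 114 with SA, against 456, 360 and 269 with silwet. The SA arrays were close together and the silwet arrays spread, and the log2 difference was -1.72 ± 0.32 (limma adjusted p = 0.0187). SCPL34 had signals of 24.4, 16.5 and 32.8 with SA, against 75.6, 60.6 and 99.1 with silwet (log2 difference -1.62 ± 0.30, limma adjusted p = 0.0187). It was the 1 call among 5 tested serine carboxypeptidase-like genes, a family that includes acyltransferases of phenolic compounds, with a median of 0.10.

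DRT100, a leucine-rich repeat protein named for a role in DNA damage tolerance, had signals of 82.3, 56.3 and 81.7 with SA, against 328, 162 and 151 with silwet (log2 difference -1.44 ± 0.30, limma adjusted p = 0.0346). Silwet Rep 1 was about as far above the other silwet arrays as these were above SA, and without it the difference was -1.09. BGLU44, a beta-glucosidase, had signals of 811, 745 and 844 with SA, against 1509, 1571 and 1301 with silwet. It was the 1 call among 9 tested beta-glucosidases, a modest change with little spread (log2 difference -0.86 ± 0.14, limma adjusted p = 0.0154), and held the call in 3 of the 6 fits without 1 array (up to 0.0784 without SA Rep 2).

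The other 9 of the 12 largest named falls are known here only by locus identifier, from AT1G17830 at -1.79 to AT5G41900 at -1.39. AT4G29650 and AT1G17830 fell to near the floor of the signal range. AT4G29650 had signals of 0.575, 2.83 and 2.74 with SA, against 17.2, 8.84 and 9.19 with silwet, and AT1G17830 had 5.01, 9.22 and 1.79 with SA, against 17.5, 34.6 and 15.4 with silwet. AT4G01130 had tight groups: its signals were 14.7, 11.0 and 16.7 with SA, against 45.3, 40.3 and 41.1 with silwet (log2 difference -1.47 ± 0.25, limma adjusted p = 0.0154). All 12 lost the call without at least 1 array, at an adjusted p of up to 0.0776 to 0.201, while their log2 differences stayed between -2.25 and -1.09.

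In most of the called probe sets, SA of title set 1 stood apart from the rest of the series as well as from the silwet arrays of its own set. In 73 of the 74 rises all 3 SA arrays exceeded every one of the other 15 arrays, and in 55 of the 58 falls they lay below every one. Over all 15922 tested probe sets this held for 877 and 869. The 74 and 58 were chosen by their difference from the 3 silwet arrays of set 1, so lying beyond those 3 was built in. That choice also favours extreme signals on the SA arrays of set 1. Lying beyond the remaining arrays, and the size of the SA medians that follow, are therefore partly built in too. The median log2 difference of the 74 rises between SA of set 1 and SA of sets 2 and 3 was 1.99, and that between silwet of set 1 and silwet of sets 2 and 3 was 0.34. For the 58 falls these medians were -1.75 and -0.32. Over all tested probe sets they were -0.03 and -0.03.

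The same probe sets had other SA differences in title sets 2 and 3. In title set 2, 15 of the 74 rises (20.3%) had a log2 difference above 0, where 48.7% of all tested probe sets did, with a median of -0.35. Of the 58 falls 6 (10.3%) were below 0 there, where 51.3% of all tested probe sets were, with a median of 0.34. In title set 3, 35 of the 74 (47.3%, against 54.0% of all) were above 0 and 34 of the 58 (58.6%, against 46.0% of all) below. By limma 0 probe sets (0.00%) were called in either of the other sets, with 1710 in set 2 and 308 in set 3 at an unadjusted p under 0.05.

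The difference between the sets was tested directly, as the SA effect in set 1 minus the mean SA effect in sets 2 and 3. It was called for 231 probe sets (1.45%), 140 higher (0.879%) and 91 lower (0.572%) in set 1, and for 2462 at an unadjusted p under 0.05. These include 55 of the 74 rises (74.3%) and 40 of the 58 falls (69.0%), while 136 of the 231 were not called in set 1 itself. Those 74 and 58 were chosen by the set 1 effect, which is also part of this contrast, so a high share of them is built in. With the Rep blocks 581 were called, with each array centred on its median 111, and without silwet Rep 1 of sets 2 and 3 528. Leaving out SA Rep 1, 2 or 3 of set 1 left 24, 28 and 72, and leaving out silwet Rep 1, 2 or 3 left 82, 46 and 373.

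**Figure D4:**
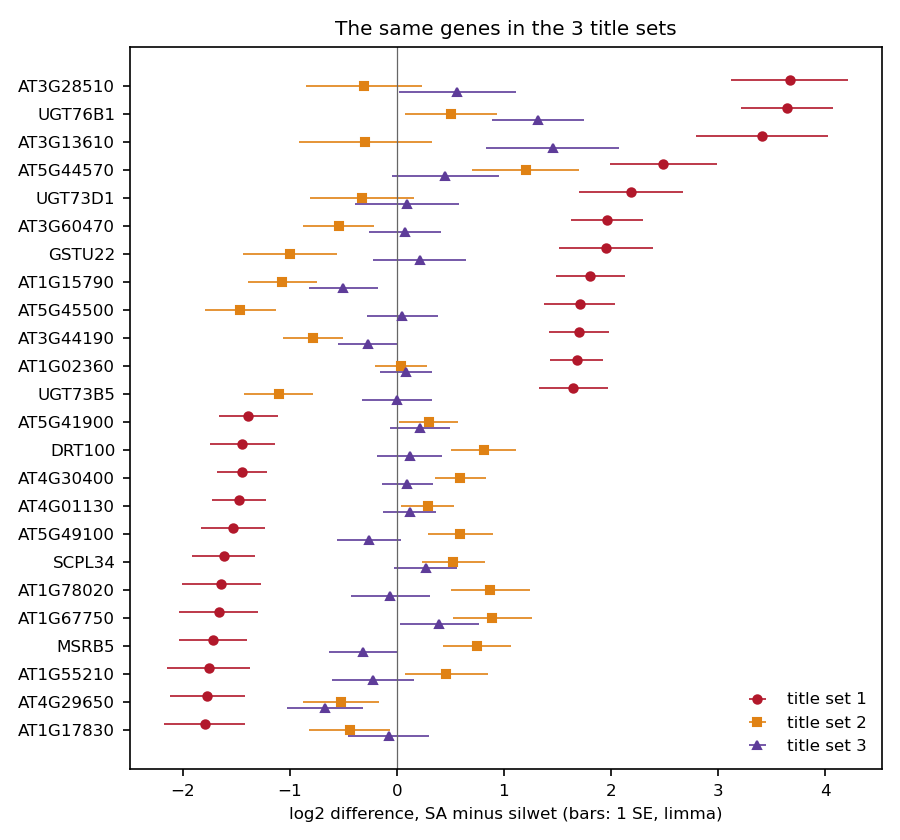
Log2 difference of SA minus silwet (horizontal axis; bars are 1 SE from limma) in title sets 1, 2 and 3 for the 12 largest named rises and 12 largest named falls of title set 1. The set 1 values were chosen for their size; 3 of the 12 rises are above 0 in set 2 and 10 in set 3.

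In title set 2 the 12 largest named rises had log2 differences of -1.46 to 1.21, and in title set 3 of -0.50 to 1.46. The difference between sets passed for 9 of them. UGT76B1 had a log2 difference of 3.65 in set 1, 0.51 in set 2 and 1.32 in set 3, and set 1 exceeded the mean of the others by 2.74 ± 0.53 (limma adjusted p = 0.0248). In set 2 its signals were 40.5 to 146 with SA and 38.3 to 84.0 with silwet, and in set 3 they were 31.9 to 34.8 with SA and 8.72 to 19.2 with silwet. The groups overlapped in set 2 and not in set 3, where both were dimmer. AT5G45500 had opposite signs, 1.71 in set 1 and -1.46 in set 2, beside 0.05 in set 3 (difference 2.42 ± 0.41, limma adjusted p = 0.0127). AT5G44570, AT3G13610 and UGT73D1 did not pass this test (limma adjusted p = 0.194, 0.072 and 0.0671).

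CYP71B23, a cytochrome P450, was not called in set 1 but passed the test of the difference between sets. Its signals were 458, 439 and 497 with SA in set 1, against 117, 208 and 346.5 with silwet. Its log2 difference was 1.18 in set 1 (limma adjusted p = 0.138), -1.70 in set 2 and -0.37 in set 3, and the difference between sets was 2.21 ± 0.43 (limma adjusted p = 0.0249). WRKY53 did so too, with log2 differences of 1.27, -0.49 and -0.31 in sets 1, 2 and 3 (difference 1.67 ± 0.39, limma adjusted p = 0.042). AT5G52810 had 1.44, -0.40 and 0.01 (difference 1.63 ± 0.33, limma adjusted p = 0.0258).

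Of the 12 largest named falls 2 were below 0 in set 2 and 6 in set 3, and the difference between sets passed for 9. MSRB5 had log2 differences of -1.72 in set 1, 0.75 in set 2 and -0.31 in set 3 (difference -1.94 ± 0.39, limma adjusted p = 0.0258). AT1G67750 had -1.66, 0.89 and 0.40 (difference -2.31 ± 0.45, limma adjusted p = 0.0249), with SA signals of 16.6, 15.3 and 35.03 in set 1, against 99.3, 57.7 and 60.7 with silwet. AT1G68570, the transporter NPF3.1, missed the threshold in set 1 (log2 difference -1.41, limma adjusted p = 0.0546) and passed the test of the difference (-1.93 ± 0.40, limma adjusted p = 0.0262). With the Rep blocks its limma adjusted p in set 1 was 0.0226 on 18 arrays and 0.143 on the 6 arrays of the set.

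**Figure D5:**
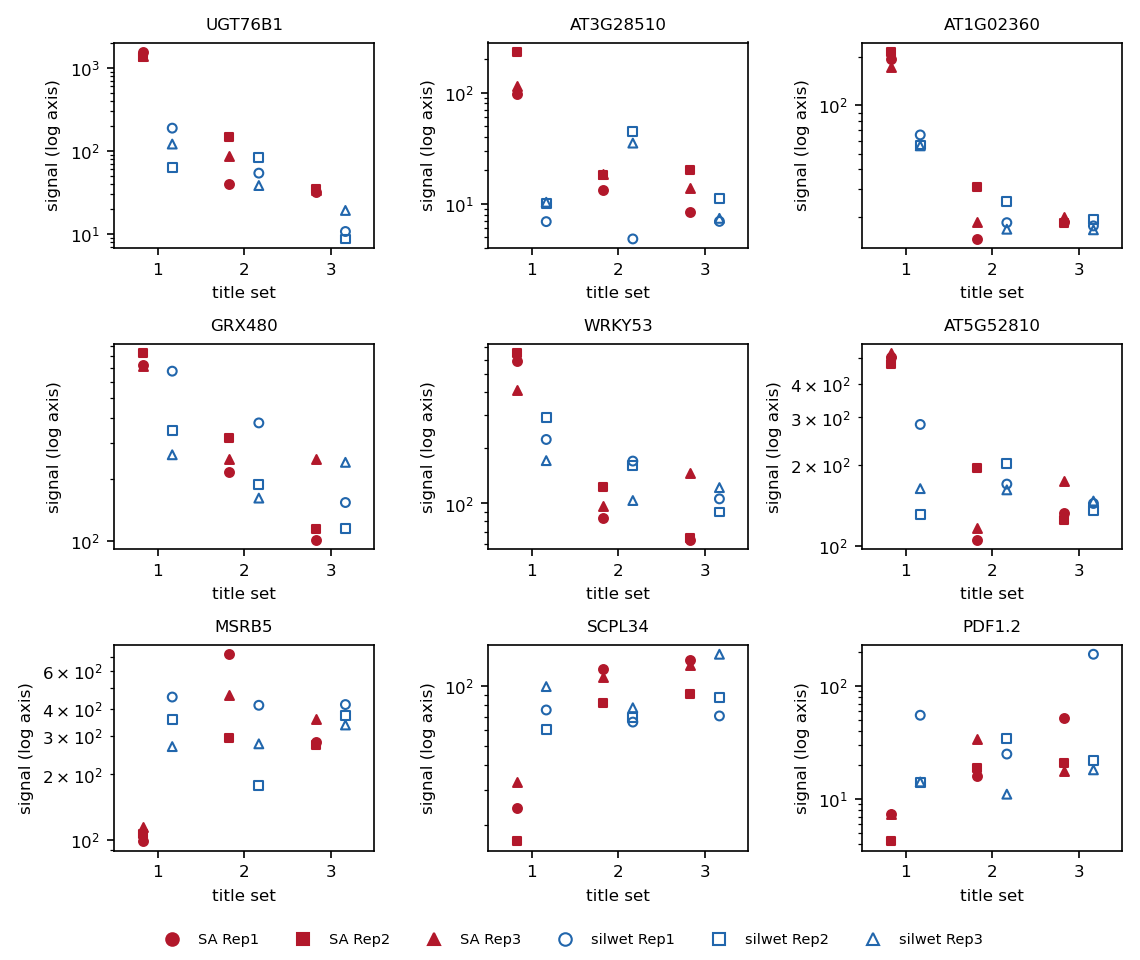
Signals (log axes, with a scale of their own in each panel) of 9 genes on all 18 arrays, by title set on the horizontal axis, SA filled red and silwet open blue, with circles, squares and triangles for Rep 1, 2 and 3. The SA arrays of title set 1 are above all other arrays for UGT76B1, AT3G28510, AT1G02360, GRX480, WRKY53 and AT5G52810, and below them for MSRB5, SCPL34 and PDF1.2. GRX480, WRKY53 and PDF1.2 were not called in the fit without blocks, and GRX480 is only narrowly above silwet Rep 1 of title set 1. Over all 15922 tested probe sets, these SA arrays were above all others for 877 and below for 869.

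What separates the title sets is not labelled. Whether the departure of silwet Rep 1 from the other arrays has a part in these differences was not tested beyond leaving that array out. In bulk RNA, fewer cells of a type and less RNA per cell cannot be told apart.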

How the data were processed

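Total RNA of Van-0 was the starting material for the ATH1 arrays, 1 sample per array. The deposited table holds linear intensities of 22810 probe sets on each array, made with MAS5 per the submitters' processing notes. Its version is not given in the sources used here. Groups were taken from the labelled treatment and from runs of title numbers. The deposited intensities were taken to log2(signal + 2), with no further normalization. The 64 AFFX control probe sets and the lowest 30% by mean over 18 arrays were left out, leaving 15922. limma 3.58.1 in R 4.3.3 (lmFit, contrasts, eBayes with intensity trend, two-sided) was fitted to all 18 arrays as 6 groups, with Benjamini-Hochberg adjustment over all tested probe sets and a threshold of 0.05, and was tested on simulated data. In title set 1, deviations from the group means correlated at 0.287, 0.310 and 0.303 between arrays with the same Rep number, against -0.315 to 0.037 for others. Deviations within a group sum to 0, so positive same-Rep values force the others to be negative on balance. Rep was taken as a possible pairing, which the titles do not state. In title set 2 the same-Rep correlations were 0.187, 0.022 and 0.472, so pairing is not borne out for its Rep 2, and in title set 3 they were 0.350, 0.292 and 0.535. No arrays were identical.

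Of the probe sets 13513 name 1 gene, 503 several and 8794 none in the platform annotation, and 13436 matched the TAIR10.1 gene table. A gene is represented by its probe set of highest mean. Named genes include the 12 largest rises and 12 largest falls among calls naming 1 gene whose SA and silwet arrays did not overlap. Also named are all tested SA response markers and up to 3 calls from each other gene list (or the smallest p where there was none). The 5 largest differences between sets in each direction complete the named genes. The arrays and the 41 lists were chosen with earlier results of these data known. Alternatives covered the pseudocount, filter, normalization, arrays, Rep block, trend and array weights. Promoter sequences were not used.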

Additional observations from a re-analysis of the deposited data

Results flagged for a closer look

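The limma test of the difference between sets passed for 25 of the 52 named genes (adjusted p of 0.00892 to 0.042). This difference is the SA effect in title set 1 minus the mean SA effect in title sets 2 and 3. Many of the 52 were chosen by their set 1 effect or by this difference itself, so a high share is built in. Over all tested probe sets it was called for 231 (1.45%). Among genes higher with SA in set 1, the differences on the log2 scale were 3.54 for AT3G28510, 2.74 for UGT76B1, 2.59 for AT1G15790, 2.42 for AT5G45500, 2.34 for GSTU22, 2.22 for AT3G44190, 2.21 for CYP71B23, 2.20 for AT3G60470, 2.20 for UGT73B5, 1.67 for WRKY53, 1.63 for AT5G52810, 1.63 for ATERDJ3B, 1.62 for AT1G02360 and 1.38 for PUB24. WRKY53, CYP71B23 and PUB24 did not pass the test in set 1 itself in the fit without blocks.

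Among genes lower with SA in set 1, the differences were -2.31 for AT1G67750, -2.05 for AT1G78020, -2.02 for SCPL34, -1.94 for MSRB5, -1.93 for AT1G68570, -1.91 for DRT100, -1.79 for AT4G30400, -1.70 for AT5G49100, -1.68 for AT4G01130, -1.64 for AT5G41900 and -0.88 for BGLU44. AT1G68570 did not pass the test in set 1 itself in the fit without blocks.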

How the results depend on the processing

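The 132 calls of title set 1 became 69 with median centring (53 rises and 16 falls, or 76.8% rises against 56.1%), 6 with the 6 arrays of the set alone, 10 with those and the replicate block, 412 with the block on 18 arrays, 2339 with array weights and 324 without the 2 silwet arrays of the other sets with low 5' to 3' ratios. Leave-one-out counts, with 1 array or 1 Rep number out, ran from 4 to 164. The 231 calls of the difference between sets became 111 with median centring, 581 with the block, 2228 with array weights and 528 without those 2 arrays, and 2 to 373 with arrays left out. Leaving out silwet Rep 1 of all 3 sets, chosen after seeing the data, gave 271 and 423 calls. Pseudocount, filter, quantile normalization and fits without the trend kept both counts within 1.5 times. No named gene called in title set 1 changed sign under the alternatives run. Signs turned for 5 genes that were not called: EXPA18 (-0.05, -0.11 and -0.02 without SA Rep 3, silwet Rep 2 or both Rep 2; leave-one-out range -0.11 to 0.27), ATHSP22.0 (-0.012 with a pseudocount of 16, -0.0041 with quantile normalization, -0.40, -0.56, -0.52 and -0.26 with arrays left out; range -0.56 to 0.85 with 1 array or 1 Rep number out), FMA (0.06, 0.12, 0.01 and 0.01 with arrays left out; range -0.38 to 0.12), GAPC2 (0.014 with quantile normalization) and GI (0.046 without silwet Rep 3; range -0.66 to 0.046). The cause of these shifts was not tested.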

Other observations

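Of 11 tested SWEET sugar transporters 0 were called by limma (median log2 difference -0.26), and the smallest p was that of SWEET17, a vacuolar fructose transporter. Its signals were 133, 171 and 171 with SA, against 539, 286 and 259 with silwet (log2 difference -1.11 ± 0.30, limma adjusted p = 0.0953). Of 18 expansins and xyloglucan hydrolases, which loosen cell walls, 0 were called (median -0.19), and XTH32 had a log2 difference of -0.86 ± 0.28 (limma adjusted p = 0.165). With the Rep blocks its limma adjusted p was 0.0491 on 18 arrays and 0.187 on the 6 arrays of the set. EPC1, a glycosyltransferase needed for cell adhesion, rose with signals of 497, 383.5 and 441 with SA, against 281, 214 and 268 with silwet (log2 difference 0.79 ± 0.18, limma adjusted p = 0.0452). GH9B8, a glycosyl hydrolase, fell with signals of 38.5, 42.9 and 43.4 with SA, against 100.5, 96.6 and 69.1 with silwet (log2 difference -1.04 ± 0.22, limma adjusted p = 0.0392). EPC1 and GH9B8 were chosen after their values were seen.

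Plastid transcripts gave 0 calls by limma among 35 photosynthesis genes, 22 gene expression genes and 10 genes of the NDH complex, with medians of 0.02, 0.02 and 0.10. The abscisic acid and dehydration genes gave 0 calls of 3 tested (median -0.97). AT3G02480 had signals of 17.7, 4.82 and 1.41 with SA, against 224, 10.7 and 9.96 with silwet, so the groups overlapped and silwet Rep 1 was the highest array. Its log2 difference was -2.08 ± 1.12 (limma adjusted p = 0.484), and -0.68 without that array.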
